A study of Homo sapiens with 47 samples.

Results

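The secreted WNT antagonists described here are 10 genes of the 58051 listed in every library: SFRP1, SFRP2, SFRP5, FRZB, WIF1, DKK1, DKK4, DKK3, NOTUM and TRABD2A. They were listed by name, for what their proteins do to WNT signals, but with earlier results of these data known. Counts of called members beside the share of all genes are therefore descriptions and no independent support. The study followed human embryonic stem cells of the WA09 (H9) line by bulk polyA mRNA sequencing over 12 time points in 3 independent differentiations, numbered here as replicates 1, 2 and 3, and P9 was sequenced in 2 of them. The first group, t0, held undifferentiated cells. All later groups were grown in N2B27 medium without vitamin A that contained CHIR-99021 (an inhibitor of the kinase GSK3 that turns on WNT/β-catenin signalling inside the cell), rhFGF2, AGN193109 (which silences retinoic acid receptors) and Y-27632 (a ROCK inhibitor that helps cells attach). The 36 h group held neuromesodermal progenitor (NMP)-like cells, and P1 to P10 were passages of these cultures, replated every 3 to 4 days, in which epithelial pre-neural progenitors (PNPs) and neural crest cells appear. At P5 and P8 each differentiation also gave an epithelial-enriched (EPI) and a mesenchymal-enriched (MES) fraction, obtained by selective detachment, which are enrichments of a mixed culture and not pure cell types. All values come from 1 cell line, and in these bulk samples fewer cells of a type and less RNA per cell cannot be told apart.

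WNT ligands are lipid-bearing proteins that bind Frizzled receptors and the co-receptors LRP5 and LRP6, which leads to the stabilization of β-catenin. The antagonists act outside the cell at separate steps. SFRP1, SFRP2, SFRP5 and FRZB carry a Frizzled-like domain that binds WNT, WIF1 binds WNT through a domain of its own, DKK1 and DKK4 occupy LRP5 and LRP6, NOTUM removes the lipid that WNT needs, and TRABD2A (also called TIKI1) is a protease that trims WNT and stays anchored in the membrane, so that it is extracellular but not released. DKK3 is a divergent relative of DKK1 whose part in WNT signalling is less settled. Several of these genes, among them DKK1 and NOTUM, are known targets of the pathway they restrain, and WNT and its antagonists pattern the posterior axis from which NMPs arise.

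The 47 libraries held between 13029491 and 64082859 estimated counts, with a median of 47292229. The marker lists did not belong to single groups. The list called PNP markers here held SOX2, CDX2, NKX1-2, CDH1 and EPCAM, some of which stem cells also express. CDH1 and EPCAM were far higher at t0 (means of 13700 and 8600 normalized counts) than in EPI at P5 (7.33 and 116). The PNP markers summed to 533 to 621 TPM at t0 (a transcript level scaled to library size and gene length) and 308 to 580.0 TPM at P5. The neural crest and mesenchymal markers summed to 1280 to 3220 TPM at P1 and P2, beside 1620 to 2730 TPM in MES at P5. Several libraries stood apart from their own groups, among them libraries of replicate 1. At P1 the summed level of the pluripotency markers POU5F1, NANOG, DPPA4 and TDGF1 was 1220 TPM in replicate 1, against 103 and 99.5 TPM in replicates 2 and 3. At P2 the PNP markers summed to 442 TPM in replicate 1, against 96.9 and 99.8 TPM. The NMP markers named below summed to 717 TPM there, against 131 and 49.7 TPM. At P3 the paraxial mesoderm markers named below summed to 275 TPM in replicate 1, against 11.1 and 24.7 TPM. At P10 the summed level of the PNP markers was 427 TPM in replicate 1, against 7.35 and 5.24 TPM in the others. Their part in the results below was not tested. Values without replicate 1, or without P10 replicate 1 alone, are given beside some of the results they touch. Log2 values that changed sign without a replicate stand in the closing section.

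Of the 10 antagonists, 8 differed among the 12 time points in edgeR, where a gene was called past 1% on the false discovery rate, 2-fold on the change and 100 on the mean normalized count. The same thresholds called 27.1% of all 21649 genes tested. The other two, SFRP5 and DKK4, had adjusted p values of 1.14e-05 and 0.000102 in edgeR but means of only 25.4 and 34.1 normalized counts. Without replicate 2 the count fell to 4 members: FRZB (adjusted p = 0.0719), DKK1 (0.0563), NOTUM (0.0288) and TRABD2A (0.074) were no longer called by edgeR, in a fit that called 2648 of 22591 genes. The summed level of the 10 genes was 978 ± 45.3 TPM (SD, n = 3) at t0 and 1043 ± 346 TPM (n = 3) at P2, lay at 287 ± 72.0 TPM at P4 and stood at 171.5 ± 4.21 TPM (n = 3 each) at P8. It was 568 and 1672 TPM in the 2 libraries of P9. At P10 it was 176, 726 and 1038 TPM in replicates 1, 2 and 3. The sum was alike in the 3 whole cultures at P8 (the EPI and MES fractions of replicate 3 stood at 341 and 499.7 TPM), although its makeup was not: SFRP2 led in replicate 1 (37.72%), DKK3 in replicate 2 (50.03%) and WIF1 in replicate 3 (31.23%).

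**Figure D1:**
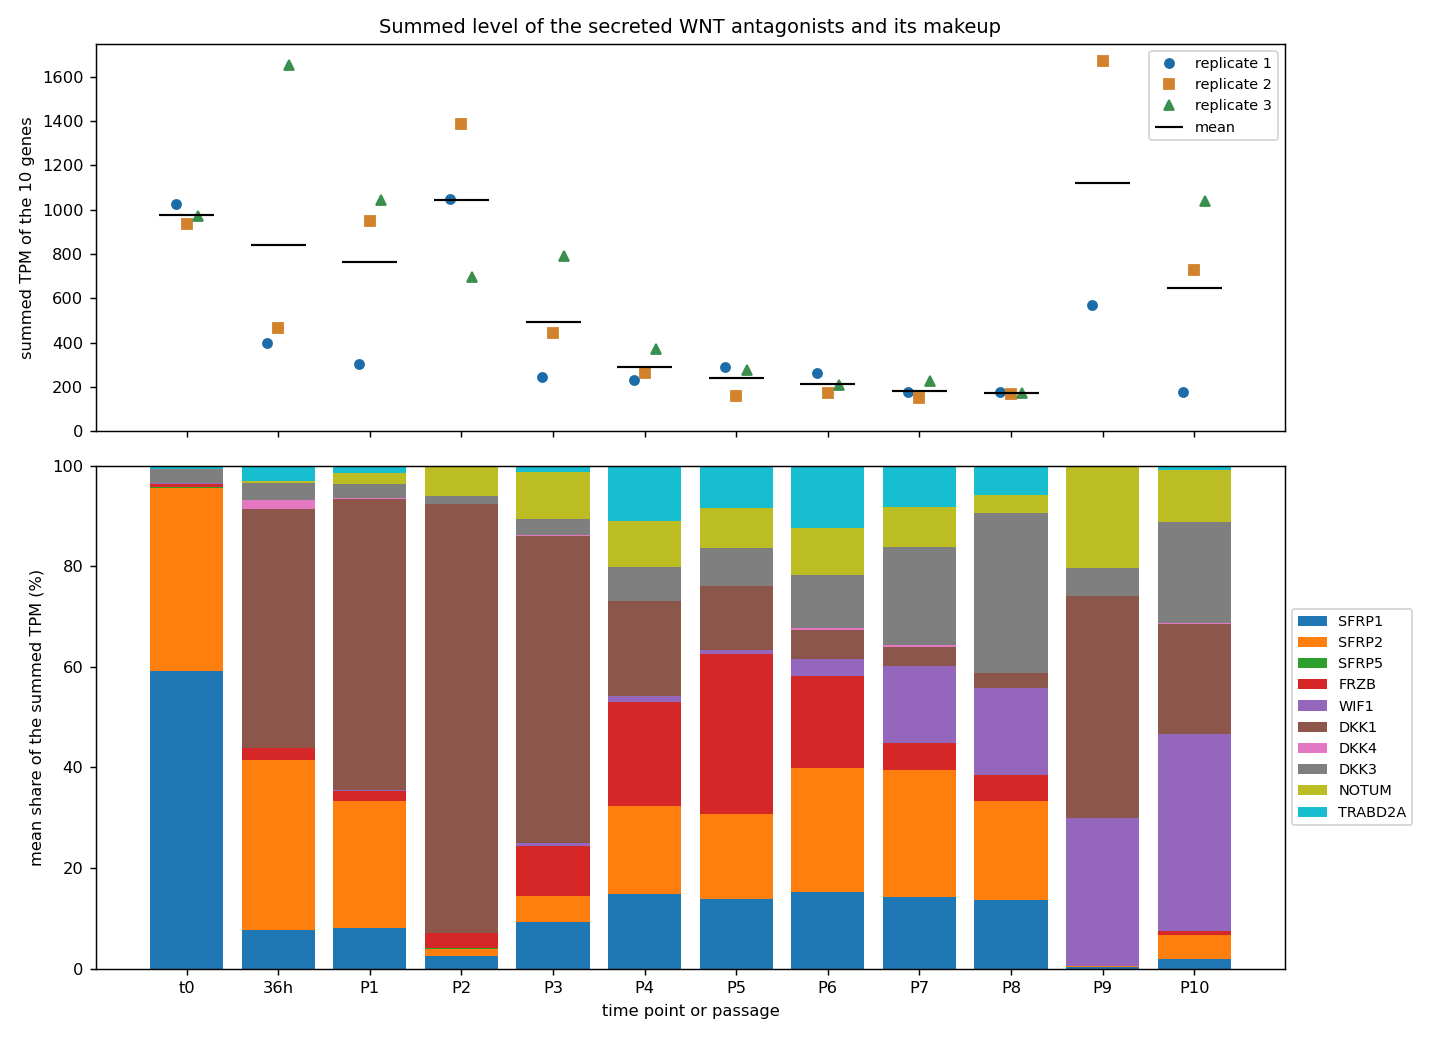
Upper panel: summed level of the 10 secreted WNT antagonists in TPM (vertical axis) in each whole-culture library by time point, with replicates as coloured symbols and the group mean as a line (n = 3, and 2 at P9). Lower panel: mean share of that sum held by each gene in percent; SFRP1 and SFRP2 fill most of the t0 bar, DKK1 85.24% at P2, and the WIF1 share is larger at P9 and P10 than at P8.

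Different genes led this sum at different time points. At t0, SFRP1 held 59.1% and SFRP2 36.46% of the summed TPM, as means of 3 libraries. DKK1 held 2.71%, 52.2% and 87.35% in the 36 h libraries of replicates 1, 2 and 3, and 85.24% as a mean at P2. FRZB had the largest mean share at P5 (31.84%), SFRP2 at P7 (25.36%), DKK3 at P8 (31.77%), DKK1 at P9 (44.12%) and WIF1 at P10 (39.19%). These means hide wide spreads, and WIF1 at P10 made up 26.88%, 70.55% and 20.13% in replicates 1, 2 and 3, where the leading genes were DKK3, WIF1 and DKK1. Over the 47 libraries the leading gene was DKK1 in 15, SFRP2 in 10, FRZB in 7, WIF1 in 6, SFRP1 in 5 and DKK3 in 4.

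**Figure D2:**
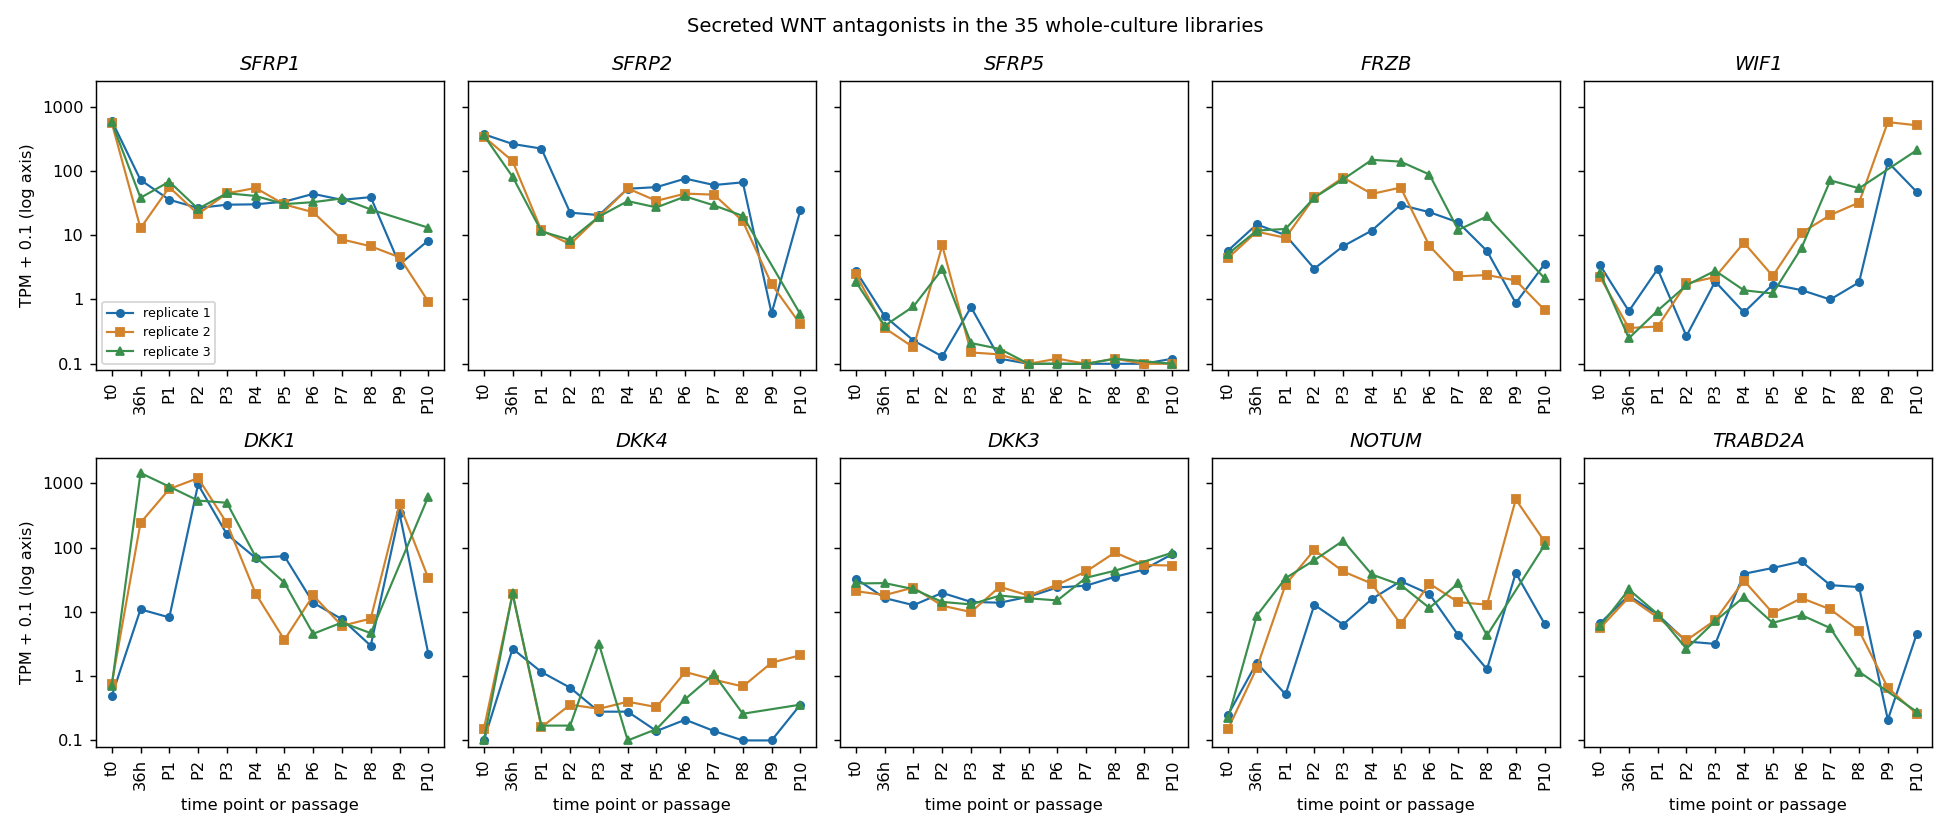
Level of each antagonist in TPM plus 0.1 (log axis) by time point in the 35 whole-culture libraries, 1 line per differentiation; replicate 3 has no point at P9 and its line spans the gap. SFRP1 and SFRP2 start high in all 3 differentiations, DKK1 has an early and a late peak, FRZB lies highest in the middle passages, later in replicate 1 than in the others, and WIF1 is highest at P9 and P10.

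SFRP1 was the most abundant antagonist of the undifferentiated cells. Its level was 603, 559.7 and 571 TPM in t0 replicates 1, 2 and 3, and 72.2, 12.8 and 38.1 TPM at 36 h. Every 36 h library lay far below every t0 library. The normalized counts went from 64820 ± 908 at t0 to 4413 ± 3074 at 36 h (SD, n = 3 each), a 14.7-fold fall with a log2 fold change of -4.02 ± 0.66 (SE) and an adjusted p of 0.000267 in edgeR. It was 1 of 3 antagonists called between t0 and 36 h, where 2.72% of all genes tested were called. Without replicate 3 the fall had an adjusted p of 0.0465, and with only the libraries of these 2 groups in the edgeR fit, 0.0146, both short of the 1% threshold. Those fits called 88 of 21012 and 147 of 18201 genes, against 588 of 21649 in the analysis as reported.

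From P1 to P6 SFRP1 lay between 21.2 and 68.0 TPM in every library. In replicate 2 it was 8.49 TPM at P7 and 6.63 TPM at P8, while replicates 1 and 3 stood at 39.0 and 25.0 TPM at P8. All 5 libraries of P9 and P10 had lower values than P8 replicates 1 and 3, from 0.83 to 12.98 TPM, but they overlapped P8 replicate 2. Against P8, P9 and P10 had a log2 fold change of -1.93 ± 0.53 (adjusted p = 0.0227, edgeR), which missed the 1% threshold, and DESeq2 gave an adjusted p of 0.00615. Without P10 replicate 1 the edgeR values were -1.96 and 0.0168.

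SFRP2, a second Frizzled-like WNT binder, went down more slowly and in 2 steps. It was at 372, 341 and 357 TPM at t0, and at 262, 142 and 81.0 TPM at 36 h in replicates 1, 2 and 3. The groups did not overlap, yet the log2 fold change of -1.46 ± 0.82 was not called (adjusted p = 0.275, edgeR). At P1 replicates 2 and 3 were down to 11.8 and 11.4 TPM, and replicate 1 was still at 222 TPM and reached 22.3 TPM only at P2. Replicate 1 thus made this step 1 passage after the others, and it was the same library that kept pluripotency markers at P1. Over all 3 differentiations the step from 36 h to P1 was not called either (-1.595 ± 0.845, adjusted p = 0.263, edgeR). Without replicate 1, edgeR called both SFRP2 at 36 h against t0 (-1.68, adjusted p = 0.000668) and SFRP2 at P1 against 36 h (-3.28, adjusted p = 1.02e-05).

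SFRP2 then partly came back. At P3 the 3 libraries were within 19.3 and 20.4 TPM, and at P6 they were at 75.8, 44.3 and 39.98 TPM. Between P5 and P1 its log2 fold change was -0.52 ± 0.84 over all 3 differentiations (adjusted p = 0.717, edgeR), and without replicate 1 it was 1.21 with an adjusted p of 0.00383, so that the direction of this comparison turned on that differentiation. At the end of the course the level dropped again, from 66.3, 16.4 and 19.8 TPM at P8 to 0.51 and 1.63 TPM at P9 and to 0.31 and 0.49 TPM in P10 replicates 2 and 3. P10 replicate 1 stood apart at 24.4 TPM.

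SFRP5, another Frizzled-like member, was scarcely present. It had 3 counts or fewer in 35 of the 47 libraries. It was measured at 2.67, 2.36 and 1.78 TPM at t0, from 0.26 to 0.45 TPM at 36 h, and at P2 at 6.83 and 2.86 TPM in replicates 2 and 3 but 0.03 TPM in replicate 1. Replicate 1 had 0.66 TPM at P3, where the others had 0.05 and 0.11 TPM. From P4 on, every library had 4 counts or fewer. Between pairs of time points its adjusted p values, from 0.0273 to 0.995 in edgeR, all missed the threshold.

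FRZB (also called SFRP3), which binds WNT in developing mesenchyme and cartilage, had a hump in the middle passages. It was at 5.66, 4.32 and 5.01 TPM at t0 and 14.6, 11.2 and 11.7 TPM at 36 h. In replicates 2 and 3 it was 38.7 and 38.4 TPM at P2, and 55.0 and 139 TPM at P5. Replicate 1 had 2.92 TPM at P2 and reached 29.5 TPM at P5, its highest value in the whole cultures. The lag of replicate 1 seen for SFRP2 thus appears here again, and over more passages.

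The steps of FRZB were large against their own starting points but spread widely between differentiations. P5 did not overlap P1, with 5427 ± 4216 against 849.6 ± 142 normalized counts (n = 3 each). The log2 fold change was 2.42 ± 0.93 (adjusted p = 0.074, edgeR), short of the threshold. At P8 the values were 5.58, 2.30 and 19.5 TPM, all below every P5 library, with a log2 fold change of -3.09 ± 0.96 (adjusted p = 0.142, edgeR). P9 and P10 held from 0.59 to 3.45 TPM.

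WIF1 had its highest levels in the last passages. It was at 3.31, 2.13 and 2.48 TPM at t0, and at 0.15 to 0.56 TPM at 36 h. Through P5 no library exceeded 7.54 TPM. At P7 it was 20.5 and 71.2 TPM in replicates 2 and 3, and 0.90 TPM in replicate 1, where it was still 1.75 TPM at P8. Then it reached 137 and 575 TPM in the P9 libraries, and 47.2, 512 and 209 TPM at P10, the highest level being in P9 replicate 2.

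At P8 against P5 WIF1 had a log2 fold change of 3.51 ± 1.18 (adjusted p = 0.174, edgeR) that was called without replicate 1 (4.72, adjusted p = 0.00762), the differentiation in which it was late. P9 and P10 together against P8 gave 3.49 ± 1.09 (adjusted p = 0.0423, edgeR), with overlap between P10 replicate 1 and P8 replicate 3 at 53.5 TPM. Within their own differentiation all 5 late libraries were above P8, by log2 differences of 2.03 to 6.03. DESeq2 called this late difference (adjusted p = 0.00739), as did edgeR without replicate 1 (adjusted p = 0.00417), while without P10 replicate 1 alone edgeR gave 3.65 (adjusted p = 0.0195).

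DKK1, which keeps LRP5 and LRP6 from joining the receptor complex, reached the highest level of the 10 genes. It was barely present at t0 (0.39, 0.66 and 0.61 TPM) and at 36 h was at 10.8, 242 and 1444 TPM in replicates 1, 2 and 3. All 36 h libraries were above all t0 libraries, although they differed widely from each other. The NMP markers TBXT, CDX1, FGF17 and WNT8A summed to 183, 765 and 1360 TPM in the same 3 libraries. At P1 they summed to 138, 441 and 234 TPM, not in the order of DKK1. The paraxial mesoderm markers TBX6, MSGN1, MESP2 and MEOX1 summed to 7.39 TPM in replicate 1 and 635 TPM in replicate 3 at 36 h, with replicate 2 between them. At P1 they summed to 6.55, 360.0 and 388 TPM. Both times their order of replicates was that of DKK1, but later it was not. At P2 they summed to 304, 63.2 and 70.5 TPM, beside DKK1 at 958, 1203 and 538 TPM. At P3 they summed to 275, 11.1 and 24.7 TPM, beside DKK1 at 161, 240 and 497 TPM. The part of either marker list in the DKK1 levels was not tested. From t0 to 36 h DKK1 had a log2 fold change of 9.68 ± 1.97 with an adjusted p of 0.00203 in edgeR. The call was lost without replicate 2 (adjusted p = 0.108, edgeR) or without replicate 3 (0.0987). Those fits called 91 of 22591 and 88 of 21012 genes, against 588 of 21649 in the analysis as reported. With these 2 groups alone in the edgeR fit the adjusted p was 0.0183.

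In replicate 1 DKK1 was at 8.09 TPM at P1 and jumped to 958 TPM at P2. Replicates 2 and 3 were already at 814 and 886 TPM at P1, and at 1203 and 538 TPM at P2. P2 was the group with the highest mean, 28350 ± 10860 normalized counts (n = 3). From P2 to P5 the values went down in each differentiation, to 73.4, 3.57 and 28.3 TPM. At P8 they were 2.87, 7.75 and 4.56 TPM, lower than at P5 in replicates 1 and 3 and higher in replicate 2. With replicate 1 left out, edgeR called P5 lower than P1 (-6.16, adjusted p = 0.00548), while over all 3 differentiations the difference was -3.86 ± 1.52 (adjusted p = 0.0792).

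A second DKK1 peak came late. The P9 libraries were at 340.4 and 473 TPM. P10 replicate 3 was at 622 TPM, replicate 2 at 33.3 TPM and replicate 1 at 2.14 TPM, below all P8 libraries. Against P8, P9 and P10 had a log2 fold change of 5.93 ± 1.58 (adjusted p = 0.0199, edgeR) and without P10 replicate 1 it was 6.28 (adjusted p = 0.0035). DESeq2 called the difference (5.95, adjusted p = 1.04e-05), as did edgeR without replicate 1 (6.17, adjusted p = 0.00615). Without replicate 2 or without replicate 3 edgeR called 0 of all genes in this comparison.

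DKK1 lies at chr10:52314296-52318042 on the plus strand (GRCh38, GENCODE 29). Its first exon shares 212 of the gene's 2206 exonic bases with an exon of the antisense gene PRKG1-AS1, and since no strand setting is given in the sources used here, reads from this stretch cannot be told apart. PRKG1-AS1 was listed at no more than 13.2 TPM in any library. The 250 bases before the DKK1 start of RefSeq (chr10:52314031-52314280, plus strand, GRCh38.p14) are shown because DKK1 was among the 3 antagonists called at 36 h against t0. Between these groups CHIR-99021, rhFGF2, AGN193109 and the medium changed together, and their parts cannot be told apart. Among the 6 members with a promoter in the RefSeq table, it was the only one with a match to any of the motifs searched on both strands: CTTTGAT, bound by TCF/LEF factors, its variant spelled CTTTGAA, and the TATA box spelled TATAAA. Capitals mark the variant TCF/LEF motif, 95 to 89 bases before the start, and the TATA box, 30 to 25 bases before it.
DKK1: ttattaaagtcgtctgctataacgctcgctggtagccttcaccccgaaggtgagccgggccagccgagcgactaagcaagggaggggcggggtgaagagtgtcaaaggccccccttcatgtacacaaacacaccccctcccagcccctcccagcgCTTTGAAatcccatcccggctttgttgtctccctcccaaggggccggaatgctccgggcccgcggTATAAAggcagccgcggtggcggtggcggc
Of 35116 promoters in that table, 5.9% hold either TCF/LEF motif in the same 250 bases and 10.7% hold the TATA box. A match describes the letters and does not show that a factor binds.

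DKK4, which also binds LRP5 and LRP6, was highest at 36 h, although its lowest 36 h library lay below P3 replicate 3. It had at most 1 count in any t0 library and stood at 2.57, 19.0 and 19.2 TPM at 36 h. At P1 it was back to 1.06, 0.06 and 0.07 TPM. The 36 h mean of 299.8 ± 215 normalized counts (n = 3) was at least 96.3-fold higher than a floor of 3 counts in each t0 library. EdgeR called the difference (adjusted p = 0.0015), which lost the 1% threshold without replicate 2 (0.0673) or replicate 3 (0.0659), in fits that called 91 of 22591 and 88 of 21012 genes. Outside 36 h no library exceeded 3.08 TPM (P3 replicate 3). The fall from 36 h to P1 had a log2 fold change of -4.65 ± 1.45 (adjusted p = 0.0477, edgeR), and -8.06 without replicate 1 (adjusted p = 0.00158).

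DKK3 ranged from 9.83 to 97.7 TPM over all 47 libraries. It was at 32.8, 20.9 and 27.5 TPM at t0, from 9.83 to 14.2 TPM at P3, and at 17.1, 17.8 and 16.1 TPM at P5. At P8 it was at 34.96, 83.7 and 43.5 TPM, above all P5 libraries. DKK3 had the smallest adjusted p of the 10 antagonists at P8 against P5 (log2 fold change 1.73 ± 0.34, adjusted p = 0.0344, edgeR), and without replicate 1 edgeR called it (2.12, adjusted p = 0.00815). P9 and P10 stayed in the same range, from 45.2 to 83.0 TPM, with a log2 difference from P8 of 0.20 ± 0.30 (SE, adjusted p = 0.72, edgeR).

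NOTUM, the WNT deacylase, ranged from 0.05 to 561 TPM over all libraries. It was at 0.15, 0.05 and 0.12 TPM at t0 and at 1.51, 1.24 and 8.61 TPM at 36 h. The log2 fold change of 5.29 ± 1.43 had an adjusted p of 0.0158 in edgeR and 7.97e-05 in DESeq2, and without replicate 1 edgeR called it (5.78, adjusted p = 0.00841). Replicates 2 and 3 were at 26.4 and 33.3 TPM at P1, where replicate 1 was at 0.42 TPM. The early maximum was 91.9 TPM at P2 in replicate 2, 127.5 TPM at P3 in replicate 3, and 29.9 TPM at P5 in replicate 1.

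At P8 NOTUM was at 1.18, 12.8 and 4.21 TPM. It was higher in the P9 libraries, at 40.2 and 561 TPM. In P10 it was at 6.43, 124 and 109 TPM. Within its own differentiation every one of the 5 late libraries lay above P8, by log2 differences of 2.45 to 5.45. NOTUM was 1 of 3 antagonists called at P9 and P10 against P8 (4.62 ± 1.05, adjusted p = 0.00855, edgeR), where 1.25% of all genes tested were called.

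TRABD2A was at 6.54, 5.49 and 5.87 TPM at t0 and at 17.8, 16.8 and 22.2 TPM at 36 h. It was at 2.57 to 3.51 TPM at P2 and at 39.0, 30.5 and 16.9 TPM at P4. Replicate 1 stayed high to P8, with 60.8 TPM at P6 and 24.2 TPM at P8, when replicates 2 and 3 were at 4.98 and 1.07 TPM. P9 held 0.11 and 0.56 TPM and P10 replicates 2 and 3 held 0.16 and 0.18 TPM. P10 replicate 1 was at 4.38 TPM.

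SFRP2 and TRABD2A were the other two antagonists called in the last passages, both downward. SFRP2 had a log2 fold change of -3.64 ± 0.79 (adjusted p = 0.00654, edgeR) and TRABD2A one of -3.95 ± 0.76 (adjusted p = 0.00353, edgeR). Each of the 5 late libraries was below P8 of its own differentiation, with log2 ratios from -6.9 to -1.4 for SFRP2 and from -7.22 to -2.48 for TRABD2A, with P10 replicate 1 the nearest to P8 for SFRP2. The PNP markers summed to 695, 253 and 162 TPM in the P8 libraries, to 16.5 and 16.7 TPM at P9, and to 427, 7.35 and 5.24 TPM at P10. The neural crest and mesenchymal markers summed to 1040, 1700 and 2950 TPM at P8, to 4050 and 4530 TPM at P9, and to 1290, 3550 and 4040 TPM at P10. That list did not move one way: SNAI1, SNAI2, TWIST1 and VIM had higher group means at P9 and P10 than at P8, and SOX9, SOX10 and TFAP2B had lower ones. The neural progenitor and neuron markers summed to 5.2, 64.5 and 24.4 TPM at P8, 36.7 and 55.8 TPM at P9, and 171, 124 and 79.4 TPM at P10. The part of these marker changes in the 3 calls was not tested. Without P10 replicate 1 all 3 were called by edgeR, SFRP2 at -5.21 (adjusted p = 1.06e-05), TRABD2A at -5.08 (4.96e-05) and NOTUM at 4.86 (0.00185). Without replicate 2 or without replicate 3 edgeR called 0 of all genes here and so none of the 3, with adjusted p values of 0.0991 and 0.13 for SFRP2, 0.14 and 0.165 for NOTUM, and 0.13 and 0.095 for TRABD2A, and without replicate 1 TRABD2A fell under the mean of 100 normalized counts. None was kept with P10 alone either (0.126, 0.0714 and 0.0707), or without the differentiation as a block (0.0398, 0.0449 and 0.0173), and P9 alone left SFRP2 at 0.0158 and TRABD2A at 0.0105. With all 47 libraries in 1 edgeR fit NOTUM was at 0.0178.

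In the other 3 comparisons of time points that were tested, no antagonist was called by edgeR in all libraries. This held at P1 against 36 h, where 1.2% of all genes were called, 1 member had an unadjusted p under 0.05 (5056 of 21649 genes did) and DESeq2 called 0. It held at P5 against P1 as well, where 4.01% of all genes were called, 3 members had an unadjusted p under 0.05 (6833 of 21649 genes did) and DESeq2 called 0. At P8 against P5, edgeR called 0.00924% of all genes, and 5 members had an unadjusted p under 0.05 (2873 of 21649 genes did). DESeq2 called DKK3 there (adjusted p = 0.000117), among 154 of 21750 genes.

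**Figure D3:**
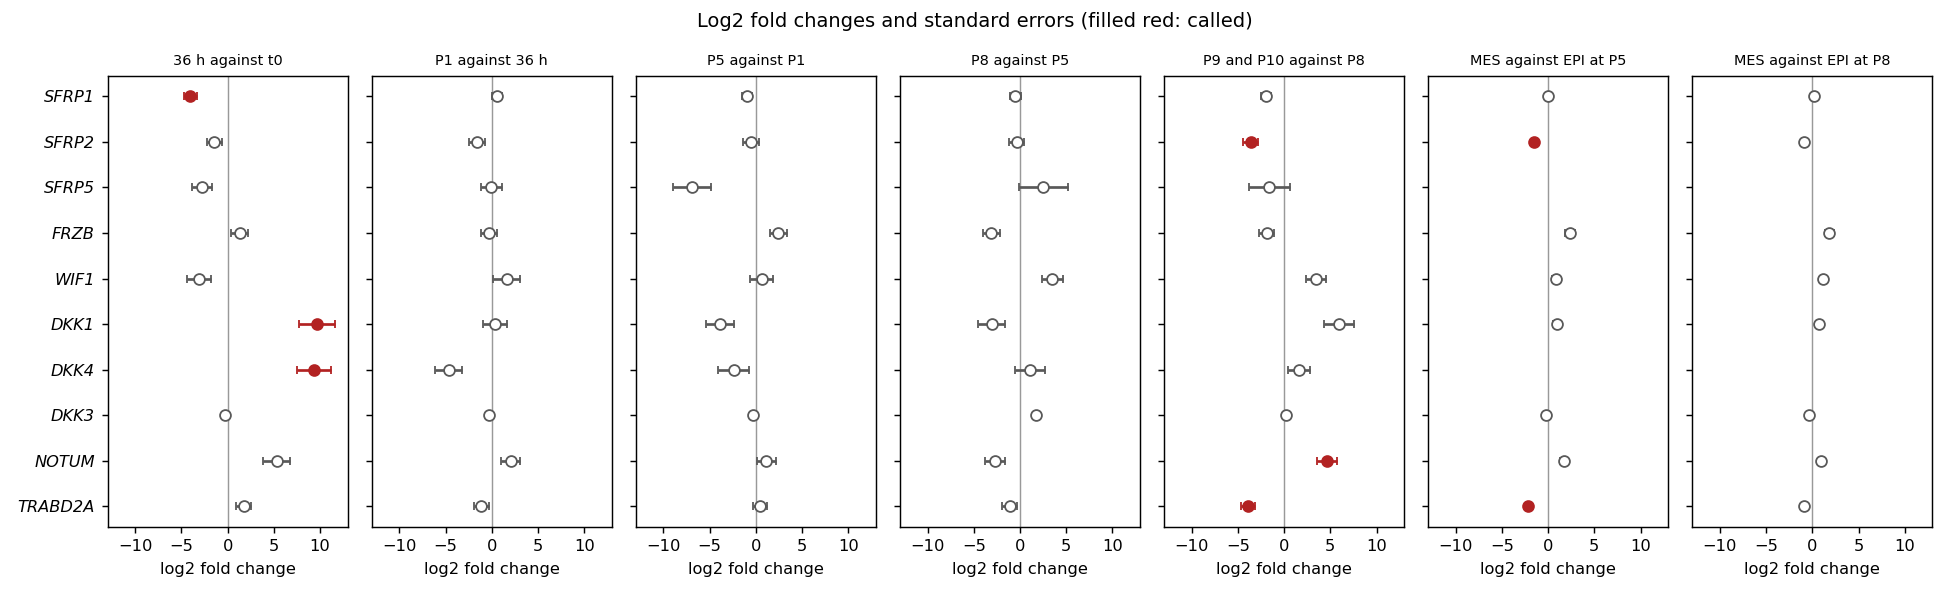
Log2 fold change (horizontal axis) of each antagonist in 7 comparisons from edgeR, with bars of 1 standard error; filled red points were called, open points were not, and SFRP5 and DKK4 were too low to test between fractions. The called points are SFRP1, DKK1 and DKK4 at 36 h, SFRP2, NOTUM and TRABD2A at P9 and P10, and SFRP2 and TRABD2A between fractions at P5.

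Between the EPI and MES fractions at P5, edgeR called SFRP2 and TRABD2A, both higher in EPI. FRZB, NOTUM and DKK1 were higher in MES in all 3 differentiations but were not called by edgeR. SFRP1 did not differ beyond the spread of its libraries. SFRP2 was at 66.8, 41.9 and 33.3 TPM in EPI replicates 1, 2 and 3 and at 21.5, 15.4 and 10.0 TPM in MES. All EPI values were above all MES values, and edgeR called the difference (log2 fold change -1.58 ± 0.08, adjusted p = 0.00926).

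TRABD2A was at 55.7, 12.5 and 7.07 TPM in EPI and at 15.96, 3.67 and 0.82 TPM in MES. It was lower in the MES fraction of each culture, although the cultures differed so much that the groups overlapped. The log2 fold change was -2.14 ± 0.21 (adjusted p = 0.00942, edgeR). SFRP2 and TRABD2A were 2 of 8 antagonists tested, beside 1.29% of all 17664 genes tested. The study had already reported both genes as lower in the mesenchymal cells at P5, from the same libraries. Both calls lay close to the threshold: with the size factors of DESeq2 in edgeR the adjusted p values were 0.0106 and 0.0109, without the culture block 0.0901 and 0.353, and without replicate 2 both were 0.0543. With all 47 libraries in 1 edgeR fit they were 0.308 and 0.2. Without replicate 3 both were 0.0117. Without replicate 1 TRABD2A was at 0.0145, in a fit that called 150 of 17631 genes, 2 antagonists among them.

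The sequences before the RefSeq start of these 2 genes are shown because SFRP2 and TRABD2A were the members called together, in the late passages and between fractions. Only the bases outside exons of protein-coding genes in GENCODE 29 are printed. For SFRP2 this is chr4:153789121-153789333 and for TRABD2A chr2:84881246-84881334, both on the minus strand (GRCh38.p14). The SFRP2 gene spans chr4:153780592-153789120. The TRABD2A gene spans chr2:84821650-84907008 in GENCODE 29, so the RefSeq start lies inside the GENCODE gene. No capitals appear, since neither full window of 250 bases holds any of the motifs searched in DKK1 on either strand, which says only that these letters are not in the windows.
SFRP2: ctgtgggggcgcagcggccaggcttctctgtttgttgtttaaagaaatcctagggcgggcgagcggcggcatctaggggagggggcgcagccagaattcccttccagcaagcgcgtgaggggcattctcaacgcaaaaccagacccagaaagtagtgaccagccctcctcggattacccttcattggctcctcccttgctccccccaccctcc
TRABD2A: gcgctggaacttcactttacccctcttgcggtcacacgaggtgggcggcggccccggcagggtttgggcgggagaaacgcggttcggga
The 250-base window of TRABD2A has a GC content of 77.2% with 28 CpG pairs and that of SFRP2 is 57.6% with 11, beside a median of 58.0% over all promoters of the table.

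FRZB was higher in MES, although edgeR did not call it. At P5 it was at 6.42, 30.5 and 92.5 TPM in EPI and at 93.8, 121 and 219.6 TPM in MES replicates 1, 2 and 3, and all MES values were above all EPI values. The log2 fold change was 2.34 ± 0.50 (adjusted p = 0.0321, edgeR, and 0.00444 in DESeq2). FRZB made up 48.96% of the summed antagonist TPM in MES, as a mean of 3 libraries, and 22.35% in EPI. NOTUM was at 13.4, 3.97 and 12.9 TPM in EPI and at 89.9, 8.50 and 25.9 TPM in MES, with a log2 fold change of 1.68 ± 0.37 (adjusted p = 0.0342, edgeR).

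SFRP1 showed no difference between the P5 fractions that exceeded the spread of the cultures. It was at 33.0, 30.3 and 29.7 TPM in EPI and at 27.2, 32.0 and 34.1 TPM in MES. Its log2 fold change was 0.02 ± 0.11 (SE), with an adjusted p of 0.917 in edgeR. DKK3, at -0.19 ± 0.14, and DKK1, at 0.90 ± 0.37, had adjusted p values of 0.38 and 0.146. The 7 neural crest and mesenchymal markers listed here (SNAI1, SNAI2 and SOX9 among them) were all higher in MES than in EPI in 3 of 3 cultures at P5. The 5 PNP markers were all lower in MES, with CDH1 at means of only 7.33 normalized counts in EPI and 2.87 in MES.

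**Figure D4:**
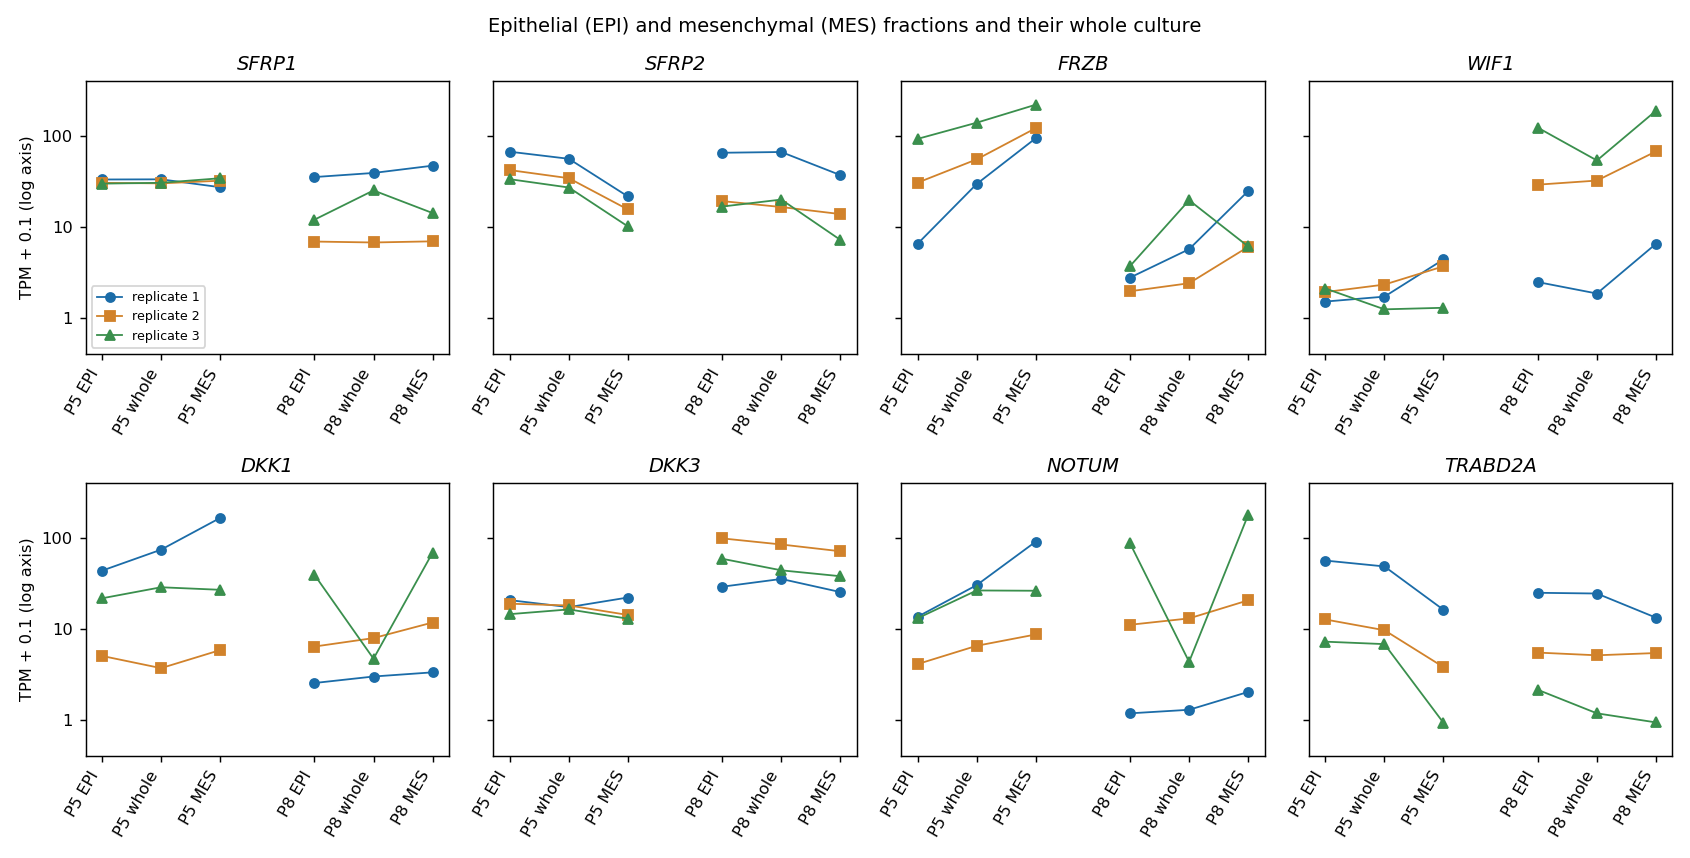
Level in TPM plus 0.1 (log axis) of 8 antagonists in the EPI fraction, the whole culture and the MES fraction at P5 and P8, with a line joining libraries of the same differentiation. SFRP2 and TRABD2A run downward to MES at P5 and FRZB upward, and at P8 the DKK1 and NOTUM points of the whole culture of replicate 3 lie below both of its fractions.

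At P8 SFRP2 and TRABD2A were lower, and FRZB, NOTUM and DKK1 higher, in MES than in EPI in each of the 3 differentiations, as at P5, but none was called. Of the neural crest and mesenchymal markers 6 of 7 were higher in MES in all 3, and of the PNP markers 4 of 5 were lower. FRZB was at 2.67, 1.86 and 3.61 TPM in EPI and at 24.6, 5.92 and 5.99 TPM in MES, again without overlap (log2 fold change 1.85 ± 0.52, adjusted p = 0.209, edgeR). SFRP2 was at 65.0, 19.1 and 16.6 TPM in EPI and at 36.9, 13.7 and 7.09 TPM in MES, lower in MES in each culture (-0.87 ± 0.15, adjusted p = 0.152, edgeR). DKK1 was at 2.42, 6.24 and 38.8 TPM in EPI and at 3.20, 11.5 and 67.9 TPM in MES (0.74 ± 0.11, adjusted p = 0.148, edgeR). The log2 fold change was 0.91 ± 0.07 for NOTUM (adjusted p = 0.1, edgeR) and -0.95 ± 0.30 for TRABD2A (adjusted p = 0.229, edgeR). DKK3 was also lower in MES in each culture at P8 (-0.35 ± 0.09, adjusted p = 0.188, edgeR). WIF1, near absent at P5, was at 2.37, 28.97 and 123 TPM in EPI and at 6.4, 67.2 and 188 TPM in MES. It too was higher in MES in each culture (a log2 fold change of 1.2 ± 0.28, adjusted p = 0.184, edgeR), and it was the member that DESeq2 called (adjusted p = 0.000188).

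In edgeR the share of all genes called at P8 was 0.0%, with 3274 of 17970 genes at an unadjusted p under 0.05 and 7 of the 8 antagonists among them. DESeq2 called 207 genes there. The change of the MES against EPI difference from P5 to P8, tested as an interaction, gave no antagonist either (0.0% of 18924 genes called in edgeR, 2284 at an unadjusted p under 0.05, 57 in DESeq2). DESeq2 called none of the 9 antagonists tested, and 2 of them had an unadjusted p under 0.05. Of these, TRABD2A was at 1.23 ± 0.41 and SFRP2 at 0.72 ± 0.19 (adjusted p = 0.334 and 0.274, edgeR).

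The fractions can also be set against the whole culture of the same differentiation and passage, although the labels do not say that they came from the same dish. Over the sets of 3 libraries in which a member reached 100 normalized counts, the whole culture lay between its fractions in 18 of 23 at P5 and in 15 of 22 at P8. Sets of different members share the same libraries, and the share over all genes was not counted, so these counts describe the members only. Replicate 3 at P8 stood apart. NOTUM was at 86.0 TPM in its EPI and 177 TPM in its MES fraction but at 4.21 TPM in the whole culture. DKK1 was at 38.8 and 67.9 TPM in the fractions and at 4.56 TPM in the whole culture, and WIF1 at 123 and 188 TPM against 53.5 TPM. SFRP1, SFRP2 and FRZB had the reverse order, with 25.0, 19.8 and 19.5 TPM in the whole culture, above both fractions. This whole culture is the P8 value of replicate 3 in the late comparison, and P10 replicate 3 stood between the P8 fractions for NOTUM (109 TPM) and above both for DKK1 (622 TPM) and WIF1 (209 TPM).

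The rest of the pathway was read from 3 lists of genes chosen by name. Over the time course edgeR called 11 of 12 direct WNT/β-catenin response genes, 9 of 16 other antagonists, and 12 of 18 receptors and partners, beside 27.1% of all genes. RNF43 and ZNRF3, both called here, belong to the response list and to the list of other antagonists, and are counted in each. Of the response genes, 7 rose from t0 to 36 h in edgeR and none fell, with a median log2 fold change of 2.70 beside -0.01 over all genes tested. Among them were SP5 (8.16 ± 0.87), LEF1 (7.0 ± 0.56), TCF7 (3.24 ± 0.43), and AXIN2 (2.56 ± 0.44), which encodes an intracellular brake of the pathway. For the 10 antagonists the same median was 0.50, with 2 called upward and 1 downward.

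Of the 16 other antagonists, which act outside the cell, at its membrane or, like SHISA2, on Frizzled inside it, 3 were called at 36 h, beside 2.72% of all genes. APCDD1, a membrane inhibitor, rose by a log2 fold change of 3.49 ± 0.74, RNF43, a ligase that removes Frizzled from the surface, rose by 2.84 ± 0.51, and SHISA2, which retains Frizzled inside the cell, fell by a log2 fold change of -5.49 ± 0.81. Of the 18 receptors and partners, 3 were called, all upward: FZD10 (7.11 ± 0.67), WLS, the carrier that brings WNT to the surface (6.02 ± 0.38), and FZD1 (1.41 ± 0.35). KREMEN1, a DKK receptor, was the only gene of these 3 lists that edgeR called between the P5 fractions, higher in MES by 1.10 ± 0.11 (adjusted p = 0.00944, edgeR), and DESeq2 called 3 response genes, 4 other antagonists, and 3 receptors and partners among 976 of 17664 genes. With the size factors of DESeq2 in edgeR, without the block, or without replicate 2 or 3, edgeR called 0 of all genes between these fractions, KREMEN1 included.

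At P9 and P10 against P8 none of the genes of these lists was called by edgeR. Over all genes 5700 of 21649 had an unadjusted p under 0.05 in edgeR, and DESeq2 called 732 of 21750. Of the 12 response genes, 7 had such a p and DESeq2 called 1. Of the 16 other antagonists 8 had such a p and DESeq2 called 1, and of the 18 receptors and partners 12 had such a p and DESeq2 called 0. The difference between the lists was not tested.

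The 10 antagonists did not move as a block. Across the 16 group means of log2 CPM, which share the same libraries, SFRP1 and SFRP2 had a Pearson correlation of 0.86, SFRP2 and TRABD2A 0.84, DKK3 and WIF1 0.82, and DKK1 and NOTUM 0.66. The lowest values were -0.88 for FRZB and DKK3 and -0.84 for SFRP2 and NOTUM. Replicate differences were shared too: in 15 groups of 3 libraries, SFRP2 and TRABD2A were highest in the same library in 13, and DKK1 and NOTUM in 11. These are descriptions over points that are not independent.

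Ordered by their group means, most neighbouring groups overlapped for each antagonist, and at most 1 of 15 neighbouring pairs did not. For SFRP1 and SFRP2 that pair set t0 apart from all other groups. The genes whose group means were most like those of an antagonist, among 13255 genes that averaged 100 or more normalized counts, were ZMYND8 for SFRP1 (Pearson r = 0.959 over 16 group means), CCDC177 (0.974) for SFRP2, KCNA1 for WIF1 (0.981) and ANTXR2 for NOTUM (0.977). For TRABD2A it was GALNT16 (0.943), for FRZB ST8SIA1 (0.926), for DKK3 NFATC2 (0.972), for DKK1 GOPC (0.928), for SFRP5 SLC4A11 (0.966) and for DKK4 TMEM185A (0.866).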

How the data were processed

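PolyA mRNA libraries of 47 samples were sequenced as 75-base single reads on a HiSeq 4000. Per the submitters' processing notes, the authors used cutadapt 1.16, STAR 2.5.2b and RSEM 1.3.0 with GRCh38. The authors deposited expected counts and TPM from RSEM per gene for each sample. The annotation release and the strand setting are not given in the sources used here. Symbols and coordinates came from GENCODE 29 (57447 of 58051 IDs matched, 604 did not) and promoters from RefSeq (GRCh38.p14).

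Expected counts were rounded to whole numbers (9.33% were not whole) and tested with the quasi-likelihood test of edgeR 4.0.16 in R 4.3.3, with TMM scaling over all 47 libraries, filterByExpr and a block for the differentiation, and p-values were adjusted over all genes tested (Benjamini-Hochberg). Called genes passed 3 thresholds: 1% on the false discovery rate, 2-fold on the change and 100 on the mean normalized count of the libraries compared. Time points came from 1 fit of the 35 whole-culture libraries, fractions from fits of 6 libraries and the interaction from 12. TPM were used as deposited for levels. All 10 members are named in every comparison, other genes by fixed lists or, for likeness, as the nearest genes by correlation. The members and lists were chosen with earlier results of these data known. Alternatives were DESeq2 1.42.0, its size factors in edgeR, no block, no filter, other thresholds, each replicate left out, other sets of libraries and TPM. The script was tested on simulated data.

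The pairing follows from the series design, in which each experiment was followed over the time points, save that replicate 3 has no P9 library. The mean correlation of same-numbered libraries, as deviations from their group means over 13297 genes, was 0.65 between EPI and MES at P5 and 0.78 at P8, 0.31 between P5 and P8, -0.01 between t0 and 36 h, 0.01 between P8 and P9, and 0.24 between P8 and P10 (lowest pair -0.09). That mean correlation was 0.21 between 36 h and P1 (lowest pair -0.12) and -0.02 between P1 and P5. No 2 replicates of a group agreed within sampling noise. TPM hold no depth. The p-values rest on the spread left after the block for the differentiation, in 3 differentiations of 1 line. For time points this spread was pooled over all whole-culture libraries, and passages of the same differentiation were treated as independent beyond the block. For fractions it is the spread of the differences between MES and EPI of the same culture.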

Additional observations from a re-analysis of the deposited data

How the results depend on the processing

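Counts are of genes called by edgeR unless another tool is named. At a false discovery rate under 5% they were 965 at 36 h against t0, 627 at P1 against 36 h, 1332 at P5 against P1, 39 at P8 against P5, 777 at P9 and P10 against P8 and 974 between the P5 fractions, with 1, 1, 6 and 4 antagonists called at P1, P8, P9 and P10, and between the P5 fractions. DESeq2 called 566 genes at P1, 154 at P8 (1 antagonist), 732 at P9 and P10 (6), 976 between the P5 fractions, 207 between the P8 fractions (1) and 57 for the interaction, and its size factors in edgeR left 0 genes and 0 antagonists between the P5 fractions. Without the replicate block, that is without the pairing, the counts were 0 at P8, 31 at P9 and P10 (0 antagonists) and 0 between the P5 fractions (0 antagonists), and the log2 values that turned sign were NOTUM at P5 against P1 (-0.14) and, for the interaction, FRZB (0.36) and WIF1 (-0.18). No count filter gave 948 genes (4 antagonists) between the P5 fractions, 20 between the P8 fractions and 1 for the interaction, and no mean minimum gave 9485 over the time course. All 47 libraries in 1 fit gave 427 at P1, 514 at P9 and P10 and 14 between the P5 fractions (0 antagonists), and the libraries of t0 and 36 h alone 147 (1 antagonist). Without P10 replicate 1, 1001 genes were called at P9 and P10, with P10 alone 19 (0 antagonists), and with P9 alone 1 antagonist, where DKK3 was at -0.09.

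Leaving out each replicate in turn gave 2648 to 6770 genes and 4 to 8 antagonists over the time course, 88 to 891 and 0 to 5 at 36 h, 2 to 946 and 0 to 2 at P1, 96 to 1232 and 0 to 2 at P5, 0 to 93 and 0 to 2 at P8, 0 to 922 and 0 to 4 at P9 and P10, 0 to 150 and 0 to 2 between the P5 fractions, and 0 to 1 gene for the interaction. The lowest counts came without replicate 2 or 3. The log2 values that changed sign, none of them called in all libraries, ranged as follows. At P1 they were -0.06 (without replicate 2) to 1.44 for SFRP1, -1.75 to 0.47 (without replicate 1; 0.1 without replicate 2) for SFRP5, and -0.69 (without replicate 2) to 1.7 for DKK1. At P5, with the turned value always that without replicate 1 save for WIF1 (replicate 2), they were -1.12 to 1.21 for SFRP2, -3.76 to 0.73 for DKK4, -0.03 to 2.08 for WIF1, -1.17 to 2.03 for NOTUM and -0.46 to 1.22 for TRABD2A. SFRP1 ranged from -1.09 to 0.02 (without replicate 2) at P8 and, between the P5 fractions, from -0.09 (without replicate 3; -0.03 without replicate 2) to 0.18. At P9 and P10 DKK3 ranged from -0.02 (without replicate 1) to 0.71 and DKK4 from -0.43 (without replicate 2) to 1.68. For the interaction SFRP1 ranged from -0.08 to 0.37 and DKK1 from -0.58 to 0.49, both turned without replicate 1. Of the other values of single antagonists, 844 kept direction and side of the threshold, 30 passed it only under the alternative and 40 passed it only in the analysis as reported. Low counts limit SFRP5 and DKK4, which had 3 counts or fewer in 35 and 18 of the 47 libraries.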
